A study of Magallana angulata with 8 samples.

Results

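The transcriptomes of Fujian oysters (*Crassostrea angulata*) that had accumulated much or little Cu under the same exposure were compared in gill and mantle. The comparison rests on 4 of the 8 libraries in the series, and within them on the 19812 of 25647 listed genes whose RPKM (reads scaled by gene length and by the mapped reads of the library) averaged at least 1 over these 4 libraries. The oysters were 9 months old, and the study kept them in 3 tanks in seawater to which copper chloride was added to 30 µg/L Cu, for 30 days. Cu was measured in the tissues of 60 exposed animals. RNA of the 6 with the highest Cu was pooled as the high-Cu libraries (G2-H for gill, M2-H for mantle), and RNA of the 6 with the lowest Cu as the low-Cu libraries (G2-L, M2-L). The other 4 libraries are the same Cu classes from oysters that were not exposed (G1-H, G1-L, M1-H, M1-L), and they are used here only beside the exposed ones. The unexposed oysters were dissected directly, without the 7 days of acclimation and the time in tanks. In any comparison with them, Cu exposure therefore cannot be told apart from time, captivity and feed.

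The sample labels give tissue and Cu class, whereas exposure, dose and pooling come from the study's methods. All exposed oysters were given the same nominal dose, so high and low refer to what an animal had taken up and not to what it was given. They lived in 3 tanks, and the tank of each pooled oyster is not given in the sources used here, so tank and Cu class cannot be told apart. Each library is a single pool, and each Cu class had 1 library per tissue. A difference within a tissue therefore has no replicate check. Gill and mantle pools may also hold tissue of the same 6 animals, so that agreement between the tissues is not agreement between independent groups of oysters.

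Oysters take up dissolved Cu across the gill and mantle epithelia. Inside cells Cu enters through a high affinity uptake protein, is bound by metallothioneins and glutathione, and is pumped out or into vesicles by Cu-transporting ATPases. Oysters are known for holding very high body Cu, much of it within haemocytes, the circulating blood cells. The gill is a ciliated epithelium over which water is pumped. The mantle lines and secretes the shell and carries muscle and sensory cells.

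The 4 libraries held between 2295171 and 2589524 recovered reads, and the other 4 between 2015375 and 2330514. A median gene had 32 reads in G2-H, 27.5 in G2-L, 28 in M2-H and 20 in M2-L. The libraries were not alike in other respects. The 100 genes with the most reads took 33.1% of the reads of M2-L, against 16.8% to 29.5% in the other 7 libraries. M2-L also had a Spearman correlation across genes of 0.817 to 0.834 with the other mantle libraries, whereas the gill libraries correlated with each other at 0.862 to 0.926. The median gene was higher by a log2 of 0.32 in M2-H than in M2-L, against 0.10 for G2-H over G2-L, 0.02 for M1-H over M1-L and 0.04 for G1-H over G1-L. Since each tissue has a single low-Cu library, no comparison remains when M2-L or G2-L is left out.

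Genes that mark the tissues followed the labels. The 65 genes of cilia and axoneme summed to 18495 RPM (reads scaled to the library total) in G2-H, 13050 in G2-L, 5051 in M2-H and 3134 in M2-L. A set of 288 genes was defined as enriched in mantle, by being at least 32-fold higher in M1-H than in G1-H and in M1-L than in G1-L on the log2(RPKM + 0.1) scale. These genes made up 7.10% of the reads of M2-H and 4.55% of those of M2-L. In gill they made up 0.0403% of the reads of G2-H and 0.341% of those of G2-L. The unexposed gill libraries had 0.00322% in G1-H and 0.00239% in G1-L, low values that the definition of the set requires. In reads the set had 1044 in G2-H against 8386 in G2-L, the most of any gill library. Of the 288 genes, 205 were at least 2-fold lower in G2-H than in G2-L and 12 higher. Their median level in G2-L was 5.85% of that in M2-L. By the mirrored rule, 53 genes were enriched in gill. They had 600 reads in M2-H and 449 in M2-L, against 13 in M1-H and 10 in M1-L, which are likewise low by definition.

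**Figure D1:**
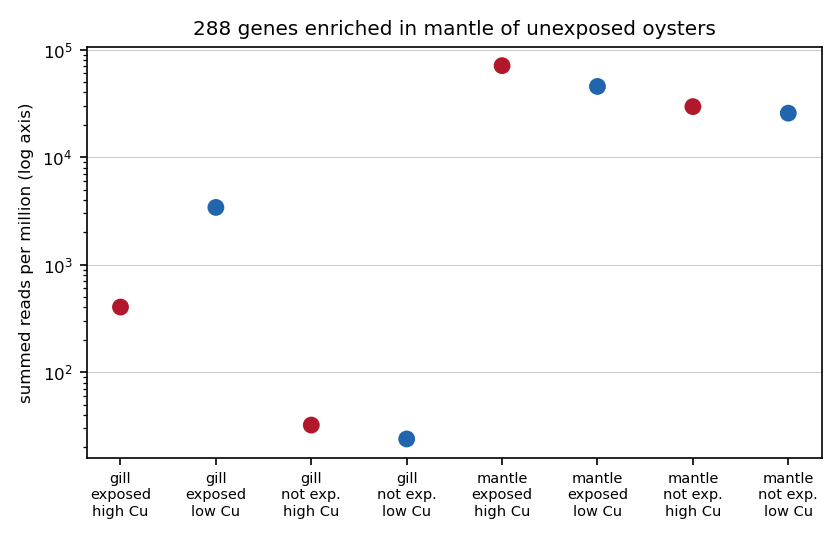
Summed RPM, reads scaled to the library total (vertical log axis), of the 288 mantle-enriched genes in each of the 8 libraries, 1 point per library, high-Cu in red and low-Cu in blue. The high-Cu gill library of exposed oysters, with 1044 reads in all, stands below the low-Cu one with 8386. The unexposed gill libraries lie far below both, and the definition of the set requires them to be low.

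For every gene the log2 of RPKM plus 0.1 in the low-Cu library was subtracted from that in the high-Cu library, and a gene was called changed at an absolute difference of at least 1, that is 2-fold. In gill 2708 genes (13.7%) were higher in G2-H and 2586 (13.1%) lower. In mantle 5766 genes (29.1%) were higher in M2-H and 2404 (12.1%) lower. The mantle split is tied to the median shift: once library medians had been set equal, M2-H was higher for 4248 genes and lower for 3528, so that 54.6% of the calls were higher in place of 70.6%. The unexposed pairs gave 1907 genes (9.63%) higher and 1841 (9.29%) lower in gill, and 2388 (12.1%) higher and 2304 (11.6%) lower in mantle.

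Of the genes called in exposed oysters, 1094 (5.52%) were higher with high Cu in both tissues and 908 (4.58%) were lower in both. A further 296 (1.49%) were higher in gill and lower in mantle, and 443 (2.24%) lower in gill and higher in mantle. With centred libraries the same-way genes divided into 800 higher and 1182 lower, 40.4% higher in place of 54.6%. Across genes, the gill and the mantle differences had a Spearman correlation of 0.26 (n = 19812 genes), and the gill and mantle differences of the unexposed oysters one of 0.11. Genes are not independent replicates, and the libraries of an oyster group may share animals, so no p-value is attached.

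The fold rule alone admits genes with few reads. Fisher's exact test (two-sided) on recovered reads was therefore required in both tissues as well, at an FDR of at most 0.001. This test compares 2 libraries and says nothing about the spread between oysters. It left 250 genes (1.26%) higher in both tissues and 276 (1.39%) lower in both. Only 5 (0.0252%) were then higher in gill and lower in mantle, and 39 (0.197%) lower in gill and higher in mantle. Of the 250 genes 57 had no informative annotation, and of the 276 genes 93 had none.

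A linear model in limma with the tissue as a block was used to ask for a Cu effect shared by both tissues. It has 1 residual degree of freedom, and its error is the difference of the Cu effect between gill and mantle. No gene (0%) reached an adjusted p under 0.05, and the smallest adjusted p was 0.181. At an unadjusted p under 0.05 there were 1558 genes (7.86%), 844 higher and 714 lower with high Cu, and limma voom on recovered reads also called 0 genes, with 1629 at an unadjusted p under 0.05. The 89 genes described below had limma adjusted p-values of 0.434 to 0.989. What follows describes differences between pools.

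**Figure D2:**
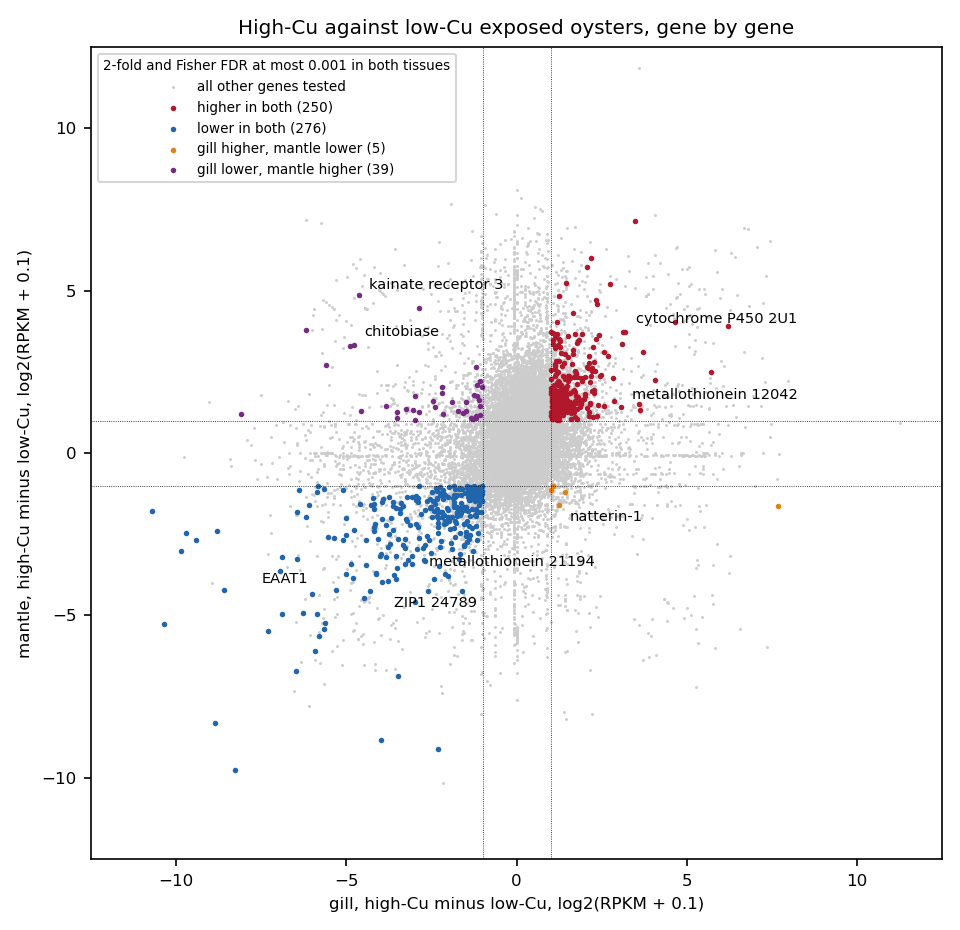
Difference between high-Cu and low-Cu libraries for each of the 19812 genes, in gill (horizontal axis) and mantle (vertical axis), both in log2(RPKM + 0.1), with dotted lines at 2-fold. Colours mark the genes past 2-fold and Fisher's exact test in both tissues, 250 higher in both, 276 lower in both, 5 higher in gill and lower in mantle, and 39 the other way round.

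The 276 genes lower with high Cu in both tissues had a median difference of -2.30 in gill and -1.89 in mantle, and the 250 higher genes had medians of 1.37 in gill and 1.84 in mantle. Transporters of amino acids, ascorbate and zinc stood among the first 8 of the ranking by the smaller of the 2 differences, which is how the named genes were chosen. The same 8 included a vesicle protein, a small GTPase and a transcription factor. Values in brackets after a log2 difference are exact 95% intervals of the ratio of reads, which cover counting error only.

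Excitatory amino acid transporter 1 (EAAT1, OYG_10017841_10008053) is a sodium-driven carrier that removes glutamate from the space around cells. It had 16.4 RPKM in G2-H against 650 in G2-L, and 19.1 in M2-H against 354 in M2-L. Both low-Cu libraries were far above both high-Cu libraries, which lay near the 14.6 RPKM of G1-H, 17.1 of M1-H and 20.1 of M1-L. The low-Cu gill pool of unexposed oysters, G1-L, was between them with 63.5 RPKM. The difference was -5.30 (-5.69 to -4.95) in gill and -4.20 (-4.58 to -3.86) in mantle. The gill difference was the larger (Woolf FDR = 0.000125). EAAT2 (OYG_10008546_10006098), a related glutamate carrier, had 13.1 RPKM in G2-H against 61.8 in G2-L, and 19 in M2-H against 125 in M2-L.

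Zinc transporter ZIP1 (OYG_10024789_10035740), which imports zinc into the cytosol, had 4.21 RPKM in G2-H against 67 in G2-L, and 11.5 in M2-H against 180 in M2-L. The differences were -3.96 (-5.15 to -3.02) in gill and -3.96 (-4.65 to -3.36) in mantle, so the tissues gave nearly the same ratio from different levels. Solute carrier family 23 member 2 (OYG_10019125_10015103), known in mammals as an ascorbate transporter, had 15.8 RPKM in G2-H against 192 in G2-L, and 20.6 in M2-H against 280 in M2-L. A second gene of that annotation (OYG_10007657_10034068) was also lower in both tissues, with 33.2 RPKM in G2-H against 250 in G2-L, and 51 in M2-H against 145 in M2-L. Synaptotagmin-15 (OYG_10018135_10040847), of a family of vesicle trafficking proteins, had 8.75 RPKM in G2-H against 121 in G2-L, and 18.1 in M2-H against 282 in M2-L. Its differences were -3.77 (-4.33 to -3.29) in gill and -3.95 (-4.33 to -3.60) in mantle.

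The remaining 4 were close to absent from the high-Cu libraries. The basic leucine zipper factor ATF-like 3 (OYG_10002396_10039925), of a family of transcription factors that pair with Jun proteins, had 1 read in G2-H against 52 in G2-L, and 1 in M2-H against 39 in M2-L. GTP-binding protein RAD (OYG_10018706_10034381), a small GTPase, had 1 read in G2-H against 79 in G2-L, and 3 in M2-H against 63 in M2-L. Transmembrane protein 2 (OYG_10015182_10031844) had 1 read in G2-H against 689 in G2-L, and 9 in M2-H against 173 in M2-L. Ratios against so few reads are loose, and the interval of the transmembrane protein 2 ratio in gill ran from -14.81 to -7.02. A gene annotated as SVEP1, a large protein with sushi, EGF and pentraxin domains (OYG_10016546_10016231), had 1 read in G2-H against 155 in G2-L, and 13 in M2-H against 389 in M2-L.

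The 276 genes were chosen for high values in G2-L and M2-L, so that their rank among the libraries follows in part from the choice and is given as a description. G2-L had the highest value of the 4 gill libraries in 228 of the 276 genes, and M2-L the highest of the 4 mantle libraries in 261. Relative to the mean of the 2 unexposed libraries of the tissue, the median was -0.70 in G2-H and 1.61 in G2-L, and -0.19 in M2-H and 1.82 in M2-L. In unexposed gill 105 of the 276 were at least 2-fold lower in G1-H than in G1-L and 7 were higher, with a median of -0.64. In unexposed mantle 37 were lower in M1-H and 25 higher, with a median of -0.09.

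Of the 276 lower genes 5 (1.81%) belonged to the mantle-enriched set, against 1.45% of all genes tested. The part that the mantle reads of G2-L had in the differences of these genes was not tested.

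The genes higher with high Cu in both tissues were led by an enzyme, a cell surface receptor and a mitotic kinase. Cytochrome P450 2U1 (OYG_10023593_10018491), of a family of haem enzymes that oxidize lipids and foreign compounds, had 36 RPKM in G2-H against 3.85 in G2-L, and 19.5 in M2-H against 1.38 in M2-L. The differences were 3.19 (2.37 to 4.22) in gill and 3.73 (2.40 to 5.75) in mantle. Multiple epidermal growth factor-like domains 10 (MEGF10, OYG_10004507_10031577), known in mammals as a receptor for engulfing dying cells, had 10.9 RPKM in G2-H against 0.741 in G2-L, and 7.71 in M2-H against 0.795 in M2-L. This gene was also higher in the unexposed high-Cu pools, with 3.13 RPKM in G1-H against 0.667 in G1-L, and 4.25 in M1-H against 0.453 in M1-L. It rests on 4 reads in each low-Cu library of exposed oysters.

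Dual specificity protein kinase TTK (OYG_10026445_10002037), which acts at the checkpoint of chromosome separation, had 40 reads in G2-H against 4 in G2-L, and 33 in M2-H against 2 in M2-L. L-ascorbate oxidase (OYG_10025860_10009364), a Cu-containing oxidase by its annotation, had 15.3 RPKM in G2-H against 2.78 in G2-L, and 31 in M2-H against 2.38 in M2-L. Another gene so annotated (OYG_10012988_10008220) was higher by 1.19 in gill and 1.29 in mantle, where it missed the Fisher threshold at an FDR of 0.00275. Murinoglobulin-2 (OYG_10023721_10011091), of the alpha-2-macroglobulin family of protease inhibitors, had 61 RPKM in G2-H against 12.1 in G2-L, and 61.6 in M2-H against 5.37 in M2-L. With 641 reads in G2-H and 606 in M2-H it was the most deeply read of the leading genes. Its differences were 2.32 (2.05 to 2.62) in gill and 3.50 (3.10 to 3.97) in mantle, and the mantle ratio was the larger (Woolf FDR = 4.05e-05).

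Complement C1q-like protein 4 (OYG_10009789_10024432), of a family of secreted recognition proteins that is expanded in bivalves, had 44 RPKM in G2-H against 7.86 in G2-L, and 49.7 in M2-H against 9.37 in M2-L. Collagen-like protein 2 (OYG_10012006_10008824) had 79 RPKM in G2-H against 11 in G2-L, and 21 in M2-H against 4.12 in M2-L. Heat shock 70 kDa protein 12A (OYG_10004820_10005316), a distant member of the chaperone family, had 41.7 RPKM in G2-H against 8.61 in G2-L, and 20.1 in M2-H against 2.77 in M2-L. Among these 8 genes the smallest difference was the 2.26 of heat shock 70 kDa protein 12A in gill.

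For the 250 higher genes the ranks are likewise tied to the choice of genes. M2-L was the lowest of the 4 mantle libraries in 211 genes, and M2-H the highest in 178. In gill G2-H was the highest in 205 and G2-L the lowest in 159. Relative to the mean of the unexposed libraries, the median was 0.94 in G2-H and -0.57 in G2-L, and 0.62 in M2-H and -1.20 in M2-L. In unexposed gill 37 of the 250 were at least 2-fold higher in G1-H and 3 lower, and in unexposed mantle 41 were higher in M1-H and 5 lower.

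**Figure D3:**
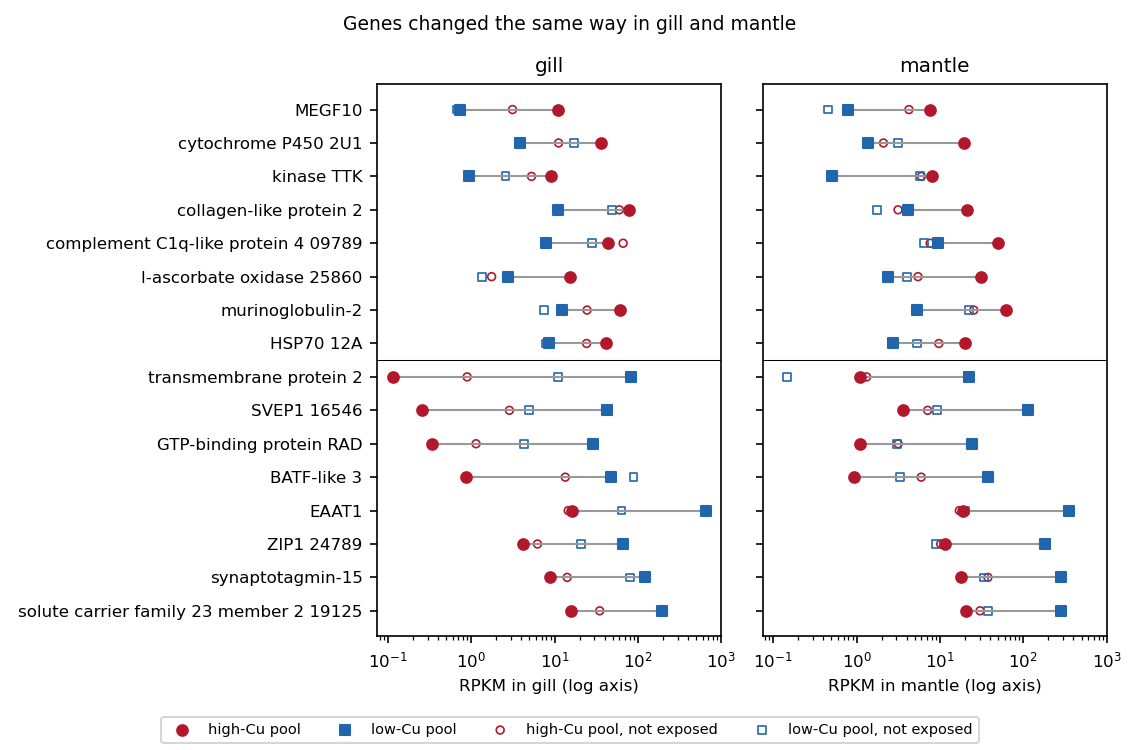
RPKM (horizontal log axis) of the 8 named genes higher in both tissues (above the line) and the 8 lower in both (below it), in gill on the left and mantle on the right. Filled symbols are the exposed pools and open symbols the unexposed pools, high-Cu as red circles and low-Cu as blue squares. EAAT1 had 16.4 RPKM in G2-H against 650 in G2-L, and the filled squares of the lower genes lie to the right of all other symbols except for BATF-like 3 in gill, where G1-L was higher.

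The 5 metallothionein genes, which code for small cysteine-rich proteins that bind Cu and zinc, did not move together. Of the 5, 3 were lower with high Cu in both tissues, 1 was higher in both, and 1 was split. The median of the 5 was -2.94 in gill and -2.61 in mantle, against 0.10 and 0.32 over all genes. Their summed reads differed less, with 122 RPM in G2-H against 167 in G2-L, and 260 in M2-H against 372 in M2-L. All 5 passed Fisher's test in both tissues.

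The metallothionein with the most reads among those lower (OYG_10021194_10012460) had 38.1 RPKM in G2-H against 293 in G2-L, and 78.9 in M2-H against 616 in M2-L. Its differences were -2.94 (-3.52 to -2.41) in gill and -2.96 (-3.37 to -2.58) in mantle. Unexposed libraries held 55.6 RPKM in G1-H against 64.8 in G1-L, and 67.2 in M1-H against 58.2 in M1-L. Of the exposed pools, the low-Cu ones thus lay further from the unexposed values. OYG_10021196_10007768 had 3.58 RPKM in G2-H against 150 in G2-L, and 29.3 in M2-H against 179 in M2-L. OYG_10000066_10007768 was the thinnest, with 2 reads in G2-H against 28 in G2-L, and 2 in M2-H against 18 in M2-L.

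The metallothionein OYG_10012042_10029507 went the other way. It had 257 RPKM in G2-H against 30.4 in G2-L, and 557 in M2-H against 209 in M2-L. The difference was 3.08 (2.52 to 3.69) in gill and 1.41 (1.17 to 1.66) in mantle, and gill exceeded mantle (Woolf FDR = 1.01e-06). In unexposed oysters it was lower with high Cu, 37.7 RPKM in G1-H against 59.3 in G1-L and 58.5 in M1-H against 92.3 in M1-L. The metallothionein OYG_10003519_10029507 had 22 reads in G2-H against 0 in G2-L, at least 6.97-fold higher when 3 reads are taken as the floor, and 20 in M2-H against 59 in M2-L. The difference between its tissues did not pass (Woolf FDR = 0.00499). Apart from OYG_10021194_10012460, the metallothioneins share the last part of their identifiers in pairs. Since only unambiguous reads were counted, the division of reads between near-identical copies is uncertain. The same limit holds for pairs of extracellular superoxide dismutase, copper-transporting ATPase 1, copper uptake and catalase genes below, which also share that part.

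The extracellular superoxide dismutases, Cu-zinc enzymes that are abundant in oyster haemolymph, differed between the tissues in the size of their change. All 5 genes were at least 2-fold higher in G2-H than in G2-L, and none was changed 2-fold in mantle. Summed, they had 3033 RPM in G2-H against 619 in G2-L, and 8661 in M2-H against 5526 in M2-L. The gene with the most reads (OYG_10026148_10030582) had 3227 RPKM in G2-H against 767 in G2-L, and 10841 in M2-H against 6666 in M2-L. The differences were 2.07 (1.98 to 2.17) in gill and 0.70 (0.66 to 0.74) in mantle. OYG_10004092_10030581 had 1052 RPKM in G2-H against 140 in G2-L, and 2199 in M2-H against 1614 in M2-L. OYG_10018833_10030584 had 506 RPKM in G2-H against 64.6 in G2-L, and 748 in M2-H against 537 in M2-L.

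OYG_10018834_10030585 had 196 RPKM in G2-H against 43.7 in G2-L, and 504 in M2-H against 304 in M2-L. The ratio differed between gill and mantle for these 4, with the largest Woolf FDR at 2.12e-20. The fifth gene, OYG_10000265_10030585, had 26 reads in G2-H against 0 in G2-L, at least 8.24-fold higher, and 75 in M2-H against 72 in M2-L. All 4 abundant genes were higher in the unexposed libraries, so that G2-L was the lowest of the gill libraries. OYG_10026148_10030582, for example, had 11568 RPKM in G1-H and 11740 in G1-L. Of the 8 intracellular superoxide dismutases and catalases, 0 were higher and 1 was lower by 2-fold in gill, and 2 were higher in mantle. The 2 catalases with the most reads, which break down hydrogen peroxide, were higher by 0.77 and 0.95 in gill and by 1.13 and 1.44 in mantle (OYG_10003354_10005709 and OYG_10016257_10005709).

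Of the genes that move Cu itself, the first exporting pump gene below was at least 2-fold lower with high Cu in both tissues. The second was so in gill only, and the main uptake gene was higher in M2-H. The second pump gene and both uptake genes were chosen after their values were seen. Copper-transporting ATPase 1 (OYG_10013657_10031298), a pump that exports Cu from the cytosol, had 15.5 RPKM in G2-H against 35.7 in G2-L, and 12.7 in M2-H against 28.3 in M2-L. The differences were -1.20 (-1.46 to -0.95) in gill and -1.15 (-1.45 to -0.86) in mantle. A second gene of that annotation (OYG_10001203_10031298) had 9.96 RPKM in G2-H against 31.4 in G2-L, and 13 in M2-H against 18.3 in M2-L. Its gill ratio was the lower one (Woolf FDR = 3.91e-06). The unexposed libraries held 6.19 to 7.71 RPKM of it.

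High affinity copper uptake protein 1 (OYG_10018882_10014878), the plasma membrane channel for Cu, had 123 RPKM in G2-H against 107 in G2-L, and 138 in M2-H against 46.8 in M2-L. The gill difference of 0.21 (-0.10 to 0.51) did not differ from 0 by counting error, and the mantle difference was 1.56 (1.16 to 1.98). A second uptake gene (OYG_10026371_10014878) had 8 reads in G2-H against 8 in G2-L, and 21 in M2-H against 26 in M2-L, too few to show a 2-fold difference in gill. Ceruloplasmin (OYG_10006923_10010814), a secreted Cu oxidase, was nearly level, with 50.7 RPKM in G2-H against 59.8 in G2-L, and 92.7 in M2-H against 105 in M2-L. In the whole list of 56 Cu transport and Cu enzyme genes, 8 (14.3%) were higher and 25 (44.6%) lower in gill, against 13.7% and 13.1% of all genes. In mantle 26 (46.4%) were higher and 4 (7.14%) lower, against 29.1% and 12.1% of all genes. Of the list 10 (17.9%) were lower in gill and higher in mantle, against 2.24% of all genes. Those 10 include the tyrosinase-like genes described with the split genes. Fisher's test was passed by 11 of the 25 lower in gill and by 17 of the 26 higher in mantle. Of the 56 genes, 15 had 0 reads in G2-H, 3 in G2-L, 15 in G1-H and 19 in G1-L. Summed, the list had 2217 RPM in G2-H against 2447 in G2-L, and 5811 in M2-H against 3375 in M2-L. The part of the mantle reads of G2-L in the gill counts was not tested.

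Zinc and iron genes were mixed. Of 26, 3 (11.5%) were higher and 7 (26.9%) lower in gill, against 13.7% and 13.1% of all genes. In mantle 6 (23.1%) were higher and 4 (15.4%) lower, against 29.1% and 12.1% of all genes. A second ZIP1 gene (OYG_10012799_10035739) had 68 RPKM in G2-H against 213 in G2-L, and 11.2 in M2-H against 40.4 in M2-L. ZIP12 (OYG_10003866_10023342) had 33.3 RPKM in G2-H against 76.6 in G2-L, and 33.6 in M2-H against 91.8 in M2-L, and ZIP10 (OYG_10005541_10026953), likewise a zinc importer, was higher by 1.37 in gill and 1.66 in mantle. Zinc transporter 1 (OYG_10019513_10015620), which exports zinc, had 47.1 RPKM in G2-H against 187 in G2-L, and 52.9 in M2-H against 99.4 in M2-L. Ferritin (OYG_10027591_10009092), the iron store, had 4803 RPKM in G2-H against 6803 in G2-L, and 11812 in M2-H against 21056 in M2-L, below 2-fold in either tissue.

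**Figure D4:**
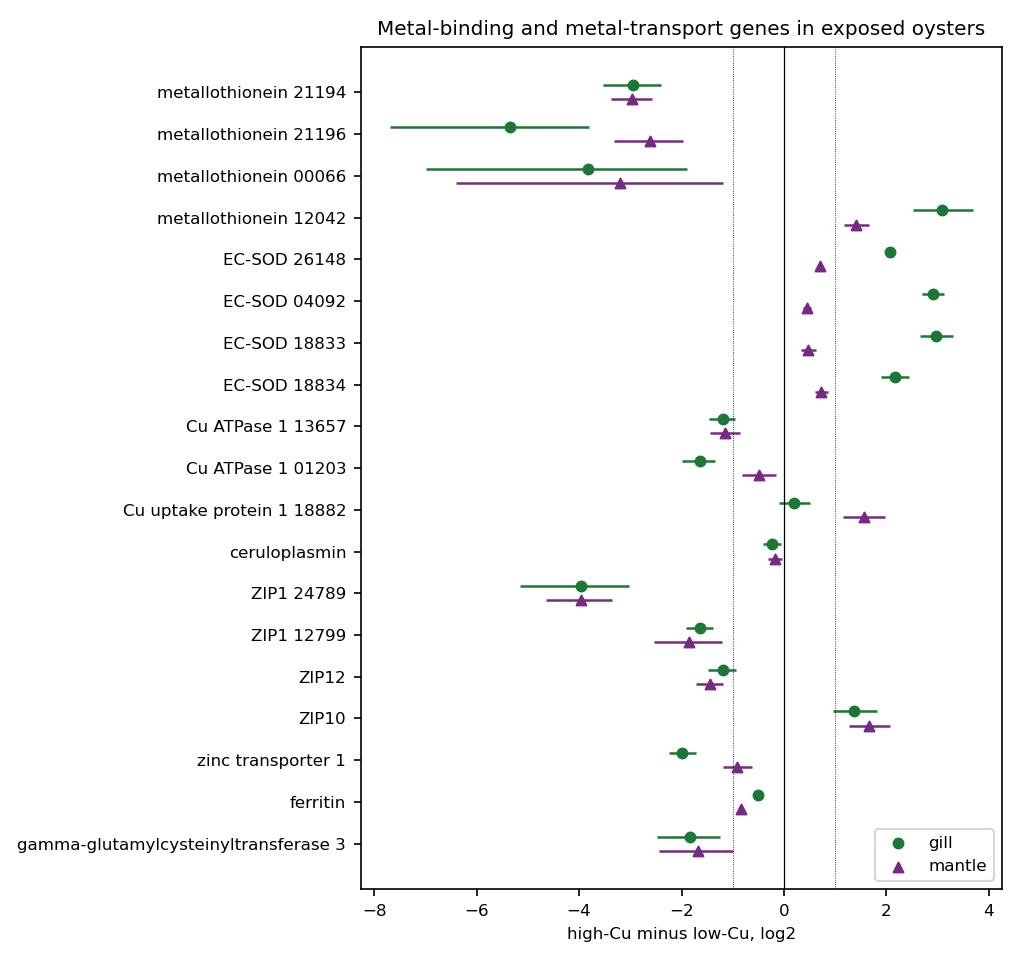
Difference between high-Cu and low-Cu libraries (horizontal axis, log2) for 19 genes of metal binding, transport and storage, gill as green circles and mantle as purple triangles, with exact 95% intervals of the ratio of reads as lines. The metallothionein in the top row sits at -2.94 in gill and -2.96 in mantle, and the extracellular superoxide dismutases (EC-SOD) at 2.07 to 2.97 in gill against 0.45 to 0.73 in mantle. Numbers after a name are the last 5 digits of the first part of the gene identifier.

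Lists of other pathways were described by the number of members past 2-fold and by their median, beside 13.7% higher and 13.1% lower of all genes in gill, and 29.1% higher and 12.1% lower in mantle. Where a list's count past Fisher's test in a single tissue is also given, no share of all genes stands beside it. Such counts depend on read depth. The DNA replication and cell division genes moved mostly one way in both tissues. Of 35, 17 were higher and 1 lower in gill, and 14 higher and 1 lower in mantle. In both tissues 11 (31.4%) were higher and 1 (2.86%) lower, against 5.52% and 4.58% of all genes. The medians were 0.98 in gill and 0.77 in mantle, against 0.09 in unexposed gill and 0.03 in unexposed mantle. The large subunit of ribonucleoside-diphosphate reductase (OYG_10023775_10027923), which makes deoxynucleotides, had 29.6 RPKM in G2-H against 8.05 in G2-L, and 23.8 in M2-H against 8.81 in M2-L.

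The replication licensing factor mcm2 (OYG_10012072_10017112) had 21.8 RPKM in G2-H against 9.6 in G2-L, and 18.1 in M2-H against 8.85 in M2-L. The mitotic kinesin KIF20A (OYG_10010828_10029245) had 7.9 RPKM in G2-H against 3.44 in G2-L, and 5.64 in M2-H against 1.81 in M2-L. Cyclin-B (OYG_10020673_10001277), which drives entry into mitosis, was higher by 0.93 in gill and 1.08 in mantle. The exception was mitotic apparatus protein p62 (OYG_10017043_10001489), with 4.99 RPKM in G2-H against 24.3 in G2-L, and 54.2 in M2-H against 132 in M2-L. In pooled tissue, more cells that divide and more of these transcripts per cell cannot be told apart, and the same holds for every difference given here.

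Of 118 heat shock 70 kDa family genes, chaperones of protein folding, 29 (24.6%) were higher and 5 lower in gill, 13 of the 29 past Fisher's test as well. In mantle 41 (34.7%) were higher and 7 lower, near the 29.1% of all genes, and 14 of the 41 passed Fisher's test. Of the family 12 (10.2%) were higher in both tissues and 2 (1.69%) lower, against 5.52% and 4.58% of all genes. Another 4 (3.39%) were higher in gill and lower in mantle, against 1.49% of all genes. The endoplasmic reticulum member, 78 kDa glucose-regulated protein (OYG_10015492_10038357), had 90 RPKM in G2-H against 39.3 in G2-L, and 80.3 in M2-H against 36.9 in M2-L. Heat shock 70 kDa protein 12B (OYG_10004823_10006974) was higher by 2.14 in gill and 1.13 in mantle. In the list of 72 glutathione, thioredoxin and peroxidase genes, 15 were higher and 8 lower in gill, and 11 higher and 15 lower in mantle. Among them peroxiredoxin-4 (OYG_10024227_10020809) was higher by 1.18 in gill, with 43 reads in G2-H against 18 in G2-L, which missed the Fisher threshold at an FDR of 0.014, and by 1.63 in mantle.

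The glutathione gamma-glutamylcysteinyltransferase (OYG_10023930_10026754), an enzyme that in plants makes metal-binding phytochelatins, had 8.71 RPKM in G2-H against 31.3 in G2-L, and 6.9 in M2-H against 22.2 in M2-L. It was also lower in unexposed gill, 6.56 RPKM in G1-H against 24.5 in G1-L. Its 106 reads in G2-L were the most in any of the 4 exposed libraries.

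Immune and cell death genes were mixed. Of 64 inhibitors of apoptosis and caspases, 7 were higher and 18 lower in gill, and 17 higher and 11 lower in mantle. In both tissues 10 (15.6%) were lower and 4 (6.25%) higher, against 4.58% and 5.52% of all genes. An inhibitor of apoptosis protein (OYG_10005393_10006012), of a family that blocks caspases, had 11.2 RPKM in G2-H against 105 in G2-L, and 12.2 in M2-H against 31.5 in M2-L. A putative inhibitor of apoptosis (OYG_10000338_10015850) had 12.8 RPKM in G2-H against 62.7 in G2-L, and 12.4 in M2-H against 139 in M2-L. A baculoviral IAP repeat gene (OYG_10026316_10022648) had 96 RPKM in G2-H against 389 in G2-L, and 74.8 in M2-H against 190 in M2-L. That gene was lower in unexposed gill as well, 86.1 RPKM in G1-H against 376 in G1-L, and nearly level in unexposed mantle.

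Of 124 Toll-like receptor and cytokine signalling genes, 15 were higher and 15 lower in gill, and 21 higher and 12 lower in mantle. In both tissues 6 (4.84%) were lower and 3 (2.42%) higher, against 4.58% and 5.52% of all genes. MyD88 (OYG_10012725_10013966), the adaptor through which Toll-like receptors signal, had 28.5 RPKM in G2-H against 175 in G2-L, and 10.2 in M2-H against 194 in M2-L. Its differences were -2.62 (-3.11 to -2.16) in gill and -4.24 (-5.11 to -3.51) in mantle. An interleukin 17-like gene (OYG_10025754_10010720), a cytokine of bivalve haemocytes, had 8 reads in G2-H against 30 in G2-L, and 8 in M2-H against 122 in M2-L, and it missed the Fisher threshold in gill at an FDR of 0.00155. Toll-like receptor 3 (OYG_10027513_10032650) was higher by 2.16 in gill and 1.53 in mantle. The 37 marker genes of haemocytes summed to 1422 RPM in G2-H against 1221 in G2-L, and to 1546 RPM in M2-H against 1362 in M2-L. Of them 7 (18.9%) were higher and 5 (13.5%) lower in gill, against 13.7% and 13.1% of all genes. In mantle 16 (43.2%) were higher and 3 (8.11%) lower, against 29.1% and 12.1% of all genes, and 11 of the 16 passed Fisher's test. Their median in mantle was 0.50, and their part in the immune gene differences was not tested.

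The extracellular matrix genes divided. Among 57 collagens, structural proteins of connective tissue, 11 were higher and 19 lower in gill, and 27 higher and 6 lower in mantle. Collagen alpha-1(IX) (OYG_10024583_10033434) had 353 RPKM in G2-H against 83 in G2-L, and 67.2 in M2-H against 10.9 in M2-L. Collagen alpha-5(VI) (OYG_10012008_10011384) had 3010 RPKM in G2-H against 1312 in G2-L, and 932 in M2-H against 436 in M2-L. Blastula protease 10 (OYG_10012822_10032054), a metalloprotease, was higher by 2.08 in gill and 1.37 in mantle. Metalloproteinase inhibitor 3 (OYG_10000389_10036144) had 0 reads in G2-H against 201 in G2-L, at least 70.5-fold lower, and 278 in M2-H against 915 in M2-L. It had no read in G1-H either.

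Cytosolic ribosomal protein genes, which code for parts of the ribosome, were lower in M2-H than in M2-L as a group. They summed to 99765 RPM in M2-H against 178176 in M2-L, and to 102851 in M1-H against 130869 in M1-L. Of the exposed mantle pools, the low-Cu one thus lay further from the unexposed values. Of 83, 27 were lower and 1 higher in M2-H, with a median of -0.87, and in gill 5 were lower and 1 higher, with a median of -0.18. The Cu ratio differed between tissues for 66 of the 83, against 12.7% of all genes (2521 at a Woolf FDR of at most 0.001). The Woolf test covers counting error only, so genes with many reads pass it more readily. The 83 genes held 408945 reads in M2-L, where a median gene had 20, so the 2 shares are not on equal terms. Proteasome subunits had medians of 0.14 in gill and -0.59 in mantle over 40 genes. At the other end, ATP-binding cassette transporters had medians of 0.02 in gill and 0.79 in mantle over 54 genes, and lipoprotein receptors and lipid transfer proteins 0.05 in gill and 1.23 in mantle over 38. The spread between these medians in mantle goes with the median shift of 0.32 in M2-H over M2-L and with the 33.1% of M2-L reads in 100 genes, whose part in the result was not tested.

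**Figure D5:**
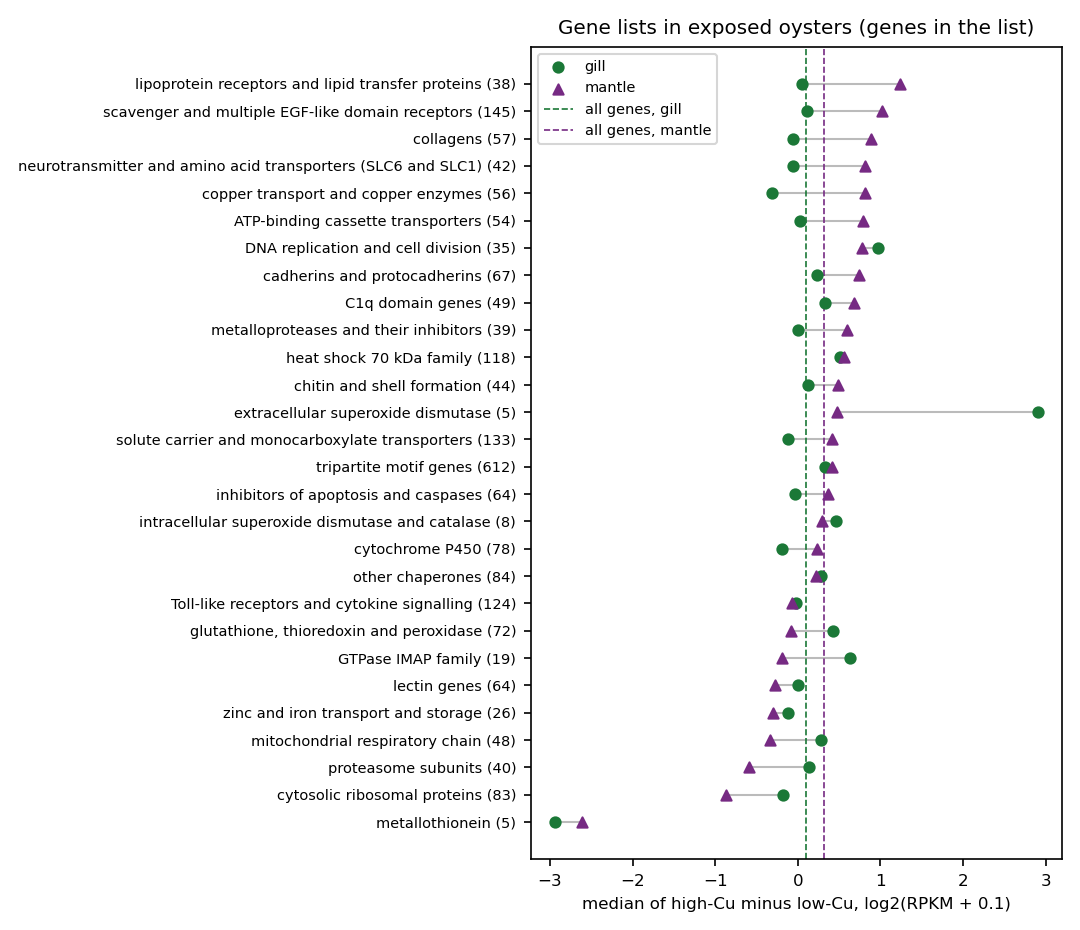
Median difference between high-Cu and low-Cu libraries (horizontal axis, log2) of each pathway list with 5 or more members, with the number of genes in brackets, gill as green circles and mantle as purple triangles. Dashed lines are the medians of all genes, 0.10 in gill and 0.32 in mantle. The median of the 5 metallothioneins lies lowest in both tissues, although 1 of the 5 was higher in both. The median of the extracellular superoxide dismutases lies highest in gill but not in mantle.

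Genes that split by tissue were few once reads were tested, and they were uneven: 39 lower in gill and higher in mantle, against 5 of the opposite kind. Relative to the mean of the unexposed gill libraries the 39 had a median of 0.23 in G2-H and 2.55 in G2-L, a description of genes chosen for a high G2-L. Of these genes 12 (30.8%) were mantle-enriched, against 1.45% of all genes, as were 48 of the 443 by fold alone, and without the mantle-enriched genes 32 split genes remained past both rules, in both directions together. The raised reads of mantle genes in G2-L accompany these splits, and their part in the result was not tested.

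Chitobiase (OYG_10007857_10010827), which cleaves chitin fragments, is such a mantle-enriched gene. It had 1 read in G2-H against 46 in G2-L, and 3049 in M2-H against 285 in M2-L. The mantle difference was 3.34 (3.16 to 3.52), while the gill ratio rests on 1 read (-10.93 to -3.05). Its level in G2-L was 15.1% of that in M2-L. A tyrosinase-like gene (tyr-3, OYG_10011916_10034657), of the phenol oxidases that cross-link shell matrix, had 1 read in G2-H against 33 in G2-L, and 2402 in M2-H against 928 in M2-L. Another (OYG_10007753_10020919) had 0 reads in G2-H against 11 in G2-L, at least 3.86-fold lower, and 903 in M2-H against 137 in M2-L, and it missed the Fisher threshold in gill at an FDR of 0.00226.

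Other split genes were not in the mantle-enriched set. A glycine transporter 2 gene (OYG_10005115_10006576), a sodium- and chloride-dependent carrier, had 42.8 RPKM in G2-H against 127 in G2-L, and 43.5 in M2-H against 18.3 in M2-L. The gill difference was -1.57 (-1.82 to -1.33) and the mantle difference 1.24 (0.84 to 1.66). Another gene of that annotation is listed in the paper as downregulated in high-Cu mantle, the opposite direction. Fibrocystin-L (OYG_10006639_10008096) had 6.16 RPKM in G2-H against 28.5 in G2-L, and 1.56 in M2-H against 0.361 in M2-L. Phospholipase C epsilon-1 (OYG_10007096_10022159), which makes the messengers inositol trisphosphate and diacylglycerol, had 2.24 RPKM in G2-H against 6.45 in G2-L, and 2.77 in M2-H against 1.06 in M2-L.

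The kainate receptor 3 gene (OYG_10002039_10031910), a glutamate-gated channel, had 2 reads in G2-H against 57 in G2-L, and 42 in M2-H against 1 in M2-L. The unexposed libraries held 22 reads in G1-H, 4 in G1-L, 1 in M1-H and 54 in M1-L, so the gene varied between pools in either direction. COMM domain-containing protein 3 (OYG_10003823_10007151) had 12.6 RPKM in G2-H against 66.1 in G2-L, and 918 in M2-H against 340 in M2-L. DMBT1 (OYG_10007953_10029017), a scavenger receptor cysteine-rich protein, had 0.475 RPKM in G2-H against 3.04 in G2-L, and 13.4 in M2-H against 4.39 in M2-L. Both COMM domain-containing protein 3 and DMBT1 were higher in mantle than in gill in either exposed Cu class. The part of the mantle reads of G2-L in their gill differences was not tested.

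Of 32 muscle genes, 1 (3.12%) was higher and 10 (31.2%) lower in gill, against 13.7% and 13.1% of all genes. In mantle 10 (31.2%) were higher, near the 29.1% of all genes, and 1 (3.12%) was lower, against 12.1%. Of the list 2 (6.25%) were lower in gill and higher in mantle, against 2.24% of all genes. The list medians were -0.65 in gill and 0.27 in mantle, the second below the 0.32 of all genes. Titin (OYG_10026641_10032291), the spring of the muscle sarcomere, had 6.75 RPKM in G2-H against 16.1 in G2-L, and 15.5 in M2-H against 4.39 in M2-L. Paramyosin (OYG_10001653_10036282), a core protein of molluscan thick filaments, had 129 RPKM in G2-H against 397 in G2-L, and 790 in M2-H against 662 in M2-L. Its mantle difference of 0.26 became -0.07 with library medians set equal. A calponin-like gene (OYG_10022982_10021920) had 35 RPKM in G2-H against 74.4 in G2-L, and 29.5 in M2-H against 6.23 in M2-L. Collagen alpha-3(VI) (OYG_10003195_10028185) was likewise lower by 1.19 in gill and higher by 1.08 in mantle.

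Some of the named splits depended on the scaling of the mantle libraries. With library medians set equal, the mantle difference was 0.92 for glycine transporter 2, 0.97 for tyr-3 (OYG_10011916_10034657), 0.98 for phospholipase C epsilon-1 and 0.76 for collagen alpha-3(VI), each under 2-fold. A pseudocount of 1 likewise gave 0.91 in mantle for fibrocystin-L (OYG_10006639_10008096) and 0.87 for phospholipase C epsilon-1. Among genes higher in both tissues, centring gave mantle differences of 0.80 for heat shock 70 kDa protein 12B, 0.80 for 78 kDa glucose-regulated protein, 0.70 for mcm2, 0.77 for collagen alpha-5(VI) and 0.96 for the second L-ascorbate oxidase gene. Of the mantle calls of the named genes 61 of 73 were kept under centring.

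The opposite split had 3 annotated genes with enough reads. Natterin-1 (OYG_10000854_10005587), named after a fish venom toxin, had 104 RPKM in G2-H against 43.6 in G2-L, and 70.6 in M2-H against 213 in M2-L. All 4 were below the 430 to 570 RPKM of the unexposed libraries. Vitamin D(3) 25-hydroxylase (OYG_10028717_10029278), a cytochrome P450, had 21.5 RPKM in G2-H against 7.9 in G2-L, and 5.41 in M2-H against 12.6 in M2-L. DPY30 domain-containing protein 1 (OYG_10021857_10037663) had 226 RPKM in G2-H against 107 in G2-L, and 46.9 in M2-H against 95.7 in M2-L. The difference between tissues passed for all 3, with a Woolf FDR of at most 2.25e-09. DPY30 domain-containing protein 1 was under 2-fold in gill with centred medians, at 0.98, and in mantle with quantile scaling, at -0.96.

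Annotated genes past both rules in 1 tissue, within 0.5 of 0 in the other and with ratios that differed by the Woolf test were also counted. They came to 839 higher and 70 lower in mantle only, and 28 higher and 76 lower in gill only. The median shift of 0.32 in mantle moves the same way, and its part in these counts was not tested. Cell division protein kinase 6 (OYG_10001400_10038082), a cell cycle kinase, had 174 reads in G2-H against 150 in G2-L, and 123 in M2-H against 3 in M2-L. The unexposed mantle libraries held 0 in M1-H and 3 in M1-L, so M2-H stood apart from the other mantle libraries. Contactin (OYG_10003022_10016524), a neural adhesion protein, had 104 reads in G2-H against 84 in G2-L, and 61 in M2-H against 3 in M2-L. Sacsin (OYG_10019898_10009945) had 208 reads in G2-H against 171 in G2-L, and 128 in M2-H against 6 in M2-L.

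In the other direction, beta-1,3-galactosyltransferase 5 (OYG_10026593_10041569), which adds galactose to glycans, had 19 reads in G2-H against 23 in G2-L, and 6 in M2-H against 92 in M2-L. Short-chain collagen C4 (OYG_10026803_10031099) had 27 reads in G2-H against 30 in G2-L, and 7 in M2-H against 67 in M2-L. A C1q-like gene (OYG_10014945_10012123) had 41 reads in G2-H against 29 in G2-L, and 18 in M2-H against 125 in M2-L. The last of these was lower in unexposed mantle too, 18 reads in M1-H against 101 in M1-L.

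The first 3 of the 28 genes higher in gill by the single-tissue rule were 2 of the extracellular superoxide dismutases and a chitin synthase gene (OYG_10015842_10032983). The chitin synthase gene had 196 RPKM in G2-H against 43.9 in G2-L, and 26.3 in M2-H against 18.6 in M2-L. In mantle these 3 were higher too, by 0.446, 0.479 and 0.497, just inside the limit of 0.5. Alkaline phosphatase (OYG_10014130_10019215) led the 76 lower in gill alone, with 2 reads in G2-H against 145 in G2-L, and 19 in M2-H against 21 in M2-L. A fibrocystin-L gene (OYG_10018365_10033257) had 3 reads in G2-H against 107 in G2-L, and differed in unexposed gill too, 4 in G1-H against 354 in G1-L. The third, a SVEP1 gene (OYG_10016016_10013271), had 3 reads in G2-H against 122 in G2-L and 890 in M2-H against 663 in M2-L. It was mantle-enriched, and its G2-L level was 17.2% of that in M2-L. A C1q-like gene from the gene lists (OYG_10004133_10039366) had 237 reads in G2-H against 0 in G2-L, at least 75.1-fold higher, and 38 in M2-H against 19 in M2-L. With 0.92 in mantle it lay outside the single-tissue rule, and its ratios did not differ between tissues at the threshold (Woolf FDR = 0.0011).

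Of 65 ciliary genes, 6 (9.23%) were higher and 0 lower in gill, below the 13.7% of all genes, and 2 of the 6 passed Fisher's test. In mantle 20 (30.8%) were higher and 1 lower, close to the 29.1% of all genes, and 17 of the 20 passed Fisher's test. The ciliary dynein beta chain (OYG_10005381_10011483), a motor of the beating cilium, had 148 RPKM in G2-H against 75.7 in G2-L, and 27.7 in M2-H against 10.5 in M2-L. Axonemal dynein heavy chain 5 (OYG_10010994_10013537) had 122 RPKM in G2-H against 70.9 in G2-L, and 21.1 in M2-H against 8.67 in M2-L. The medians of the list were 0.40 in gill and 0.54 in mantle, above the 0.10 and 0.32 of all genes.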

How the data were processed

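The authors deposited 1 table of RPKM values for 25647 genes in 8 pooled libraries. Per the study's methods, tags were filtered, mapped to the *Crassostrea gigas* genome with at most 1 mismatch and counted where unambiguous. The submitters' processing notes name TopHat and Cufflinks, with versions not given in the sources used here. A dash was read as 0. Whole reads were recovered from the RPKM steps (100% of 25181 genes with reads, tolerance 0.01) and drive the Fisher, Woolf and interval calculations.

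Differences are high-Cu minus low-Cu of log2(RPKM + 0.1), over genes averaging 1 RPKM or more in the 4 exposed libraries, and a fold change on this scale understates that of low genes. Python 3.11.15, numpy 2.4.6, scipy 1.17.1, pandas 2.3.3, matplotlib 3.10.9 and, in R 4.3.3, limma 3.58.1 with an intensity trend and tissue as a block were used, with Benjamini-Hochberg adjustment over all 19812 genes. The Woolf test compares the ratio of reads between gill and mantle, at an FDR of at most 0.001. Scripts were tested on simulated data.

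Named genes were annotated, had at least 30 reads in each tissue's pair and were ranked by the smaller difference: up to 8 higher and 8 lower in both tissues, 6 for each split, and 3 up and 3 down for each single tissue. From each gene list the 4 most abundant members and the 4 most abundant that changed in both tissues were added. This rule gave 258 genes, of which 84 are described. A further 5 were chosen after their values were seen: metallothionein OYG_10000066_10007768, extracellular superoxide dismutase OYG_10000265_10030585, the second copper-transporting ATPase 1 and both copper uptake genes. The members and the 35 lists were chosen with earlier results of these data known, and 12 lists were trimmed of wrong matches after values were seen. Bounds against 0 reads take 3 reads per library as the floor. Alternatives were other pseudocounts, filters, fold thresholds, scalings and models, and leaving out mantle-enriched genes.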

Additional observations from a re-analysis of the deposited data

Results flagged for a closer look

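The ratio of high-Cu to low-Cu reads differed between gill and mantle for 42 of the 89 named genes (Woolf test, FDR of at most 0.001). Many of the 89 were chosen as split between tissues, and the single-tissue genes by this same test, so the count is a description. The values below are the gill log2 ratio minus the mantle log2 ratio, and the test covers counting error between libraries. Of the 42 values, 28 were negative and 14 positive, and over all genes 1957 were negative and 564 positive. The ratio over all genes was shifted by a median of 0.32 in mantle and 0.10 in gill, and 3 of the 42 genes were mantle-enriched, a set raised in G2-L. Their part in these differences was not tested.

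Among the most negative, the difference was -9.34 for kainate receptor 3, -8.37 for chitobiase, -5.85 for putative tyrosinase-like protein tyr-3 (OYG_10011916_10034657), -5.72 for alkaline phosphatase, tissue-nonspecific isozyme, -5.55 for SVEP1 (OYG_10016016_10013271) and -4.92 for cell division protein kinase 6. It was -4.59 for fibrocystin-L (OYG_10018365_10033257), -4.24 for fibrocystin-L (OYG_10006639_10008096), -4.23 for deleted in malignant brain tumors 1 protein, -4.02 for sacsin, -3.82 for contactin and -3.81 for COMM domain-containing protein 3. These were followed by -3.32 for leucine-rich repeat and calponin-like protein domain-containing protein 3, -3.07 for titin, -2.88 for 1-phosphatidylinositol-4,5-bisphosphate phosphodiesterase epsilon-1, -2.81 for sodium- and chloride-dependent glycine transporter 2, -2.28 for collagen alpha-3(VI) chain and -1.88 for paramyosin. Smaller negative differences were -1.85 for inhibitor of apoptosis protein, -1.40 for solute carrier family 23 member 2 (OYG_10007657_10034068), -1.35 for Cu uptake protein 1 (OYG_10018882_10014878), -1.18 for murinoglobulin-2, -1.16 for Cu ATPase 1 (OYG_10001203_10031298) and -1.10 for EAAT1. The negative values nearest 0 were -1.08 for zinc transporter 1, -0.67 for baculoviral IAP repeat-containing protein 2, -0.50 for dynein heavy chain 5, axonemal and -0.42 for dynein beta chain, ciliary.

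In the other 14 genes the gill ratio was the higher. The larger values were 2.46 for EC-SOD (OYG_10004092_10030581), 2.49 for EC-SOD (OYG_10018833_10030584), 2.64 for vitamin D(3) 25-hydroxylase, 2.83 for natterin-1, 3.03 for short-chain collagen C4, 3.26 for complement C1q-like protein 4, partial and 3.57 for beta-1,3-galactosyltransferase 5. The others were 0.34 for ferritin, 0.71 for blastula protease 10, 1.37 for EC-SOD (OYG_10026148_10030582), 1.43 for EC-SOD (OYG_10018834_10030585), 1.65 for metallothionein (OYG_10012042_10029507), 1.66 for chitin synthase 1, partial and 2.10 for DPY30 domain-containing protein 1.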

How the results depend on the processing

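No paired analysis was possible because each group had a single replicate number, other than the pairing by tissue in limma's block, and no replicate could be left out. Without the tissue block limma also called 0 genes, with 564 at an unadjusted p under 0.05. A threshold of log2 2 left 466 genes changed the same way in both tissues (2002 at log2 1) and 166 split (739), with 795 higher and 1191 lower in gill and 2100 higher and 887 lower in mantle. With Fisher's test in both tissues 526 same-way and 44 split genes remained, and at log2 2 these were 129 and 7. A mean RPKM of at least 5 gave 1074 same-way and 250 split genes, 1322 higher and 1417 lower in gill, and 1257 lower in mantle. A pseudocount of 1 gave 380 split genes, and no filter gave 1165. Quantile scaling gave 3625 genes lower in mantle. The 0 genes of limma at an adjusted p under 0.05 became 1 with a pseudocount of 1, 6 with a mean RPKM of at least 5, 17 with quantile scaling and 81 with median centring, of which 80 were lower. Leaving out the mantle-enriched genes, an alternative chosen after seeing the data, gave 521 same-way and 32 split genes past both rules. Of 712 recomputed values of the 89 named genes under 4 alternatives, 70 lay outside the counting interval, and 1 changed sign, the uncalled mantle difference of paramyosin (0.26, and -0.07 with median centring). Of 73 mantle calls among them 61 stayed past 2-fold with median centring and 63 with quantile scaling, and of 74 gill calls 73 and 74. Depth limits genes with fewer than about 30 reads in a pair, and the spread between oysters is unknown.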
